A study of Mus musculus with 8 samples.

Results

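Detoxification enzyme genes were followed in thymic epithelial cells (TECs) before and after culture. The set holds 10 of the 56923 genes in the count files: 3 flavin-containing monooxygenases (*Fmo1*, *Fmo2*, *Fmo5*), 2 cytochrome P450 enzymes (*Cyp2f2*, *Cyp1b1*), 4 glutathione S-transferases (*Gstm1*, *Gstm2*, *Gsta4*, *Gstt1*) and 1 aldehyde dehydrogenase (*Aldh1a1*). They were chosen by symbol and enzyme class, with earlier results of these data known. *Fmo2*, *Gstm1* and *Cyp2f2* entered the set because they rose in organoids in these same libraries, so their levels in organoids are given as a description with no test. The other 7 genes were tested in all comparisons.

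Cells clear foreign and waste molecules in steps. Monooxygenases of the Fmo and P450 families add oxygen to a substrate, glutathione S-transferases join the product to the peptide glutathione, and aldehyde dehydrogenases turn reactive aldehydes into acids. These enzymes are best known from liver, lung and kidney, where single family members mark particular epithelial cells, and some have substrates of the cell's own, such as retinaldehyde for ALDH1A1.

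Bulk 3′ RNA sequencing covered 4 groups with 2 libraries each, all wild type, C57BL/6J and labelled as untreated. *In vivo* TECs were EpCAM-positive cells sorted from E16.5 embryonic thymi and lysed at once, and 2D-cultured TECs were grown for 3 days on laminin until confluent. Organoids grew from sorted TECs in Matrigel for 3 days (D3) or 7 days (D7), and both kinds of culture were kept in the same medium, with FGF7 and N-acetylcysteine. The ROCK inhibitor thiazovivin was added at the start of organoid culture, and whether 2D cultures received it is not stated. The labels call the libraries of a group biological replicates, and the study's legend to a plot of these data gives 2 mice per condition. Levels are given as CPM, the read count relative to the library size after TMM scaling, and a gene was called when edgeR's quasi-likelihood test gave an adjusted p of at most 0.05 over 14504 genes.

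Library totals ran from 5084715 to 7612532 counts, and ribosomal 18S RNA took 16.6% to 24.3% of them. The summed level of 10 TEC markers was 7254 to 7615 CPM *in vivo*, 6522 to 7157 CPM in 2D, 1230 to 1376 CPM in D3 and 1769 to 1797 CPM in D7 organoids, with all 10 above 3 counts except in 2D, where 9 were. In 2D the sum came mainly from keratins and *Epcam*, with *Krt18* at 3597 and 3157 CPM, so it does not measure thymic identity. *Prss16*, the largest marker *in vivo*, was at 2848 and 2903 CPM there and at 16.7 and 16.0 CPM in 2D. It was at 41.7 and 43.9 CPM in D3 and 379 and 389 CPM in D7 organoids. *Foxn1*, the transcription factor that defines TECs, was at 224 and 274 CPM *in vivo*, 8.55 and 4.83 CPM in 2D, 8.79 and 9.65 CPM in D3 and 60.7 and 85.2 CPM in D7 organoids. *Psmb11*, the proteasome subunit of cortical TECs, was at 523 and 556 CPM *in vivo* and at most 0.98 CPM in 2D and D3 organoids, with 106 and 113 CPM in D7 organoids. Hepatocyte markers were near 0, with a sum of at most 2.12 CPM over 6 genes in any library and *Alb* and *Serpina1a* at 0 in all 8. Of 9 thymocyte markers 7 were above 3 counts *in vivo*, where they summed to 292 to 661 CPM against at most 9.29 CPM in any culture. Endothelial markers summed to 4.70 to 5.22 CPM *in vivo* and at most 1.19 CPM in culture. Mesenchymal markers summed to 49.4 to 53.0 CPM *in vivo*, 34.2 to 40.9 CPM in 2D, 22.5 to 27.0 CPM in D3 and 73.7 to 81.6 CPM in D7 organoids, where *Dcn*, decorin, was at 53.6 and 51.0 CPM against 7.10 and 3.36 CPM in D3. Myeloid markers summed to at most 7.90 CPM *in vivo*, 4.83 CPM in 2D and 0.68 CPM in D3, and to 11.7 to 12.5 CPM in D7 organoids, mostly *Lyz2* at 12.2 and 10.3 CPM, with *Csf1r*, *Adgre1* and *Tyrobp* at 0 there. Erythroid markers reached at most 12.0 CPM and thyroid and parathyroid markers at most 86.2 CPM, both *in vivo*. The part of these cells in the differences between *in vivo* TECs and cultures, or between D3 and D7 organoids, was not tested. In bulk RNA, fewer cells that express a gene and less RNA per cell cannot be told apart.

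The 10 genes passed the filter of at least 1 CPM in at least 3 libraries. As they were chosen with earlier results of these data known, their counts beside the background are a description. Between 2D-cultured and *in vivo* TECs 8 of the 10 were called, 2 higher and 6 lower, where 41.6% of all genes tested were called. Among the 7 genes not picked on their rise, 5 were called between D3 organoids and *in vivo* TECs (3 higher, 2 lower; background 28.2%) and 7 between D7 organoids and *in vivo* TECs (6 higher, 1 lower; background 34.8%). Against 2D-cultured TECs 4 were called in D3 organoids (3 higher, 1 lower; background 38.3%) and 6 in D7 organoids (5 higher, 1 lower; background 45.5%). From D3 to D7 organoids 5 of the 7 were called, all higher, against a background of 20.8% (10.9% higher and 9.91% lower). The median log2 fold change of the 7 genes was -1.38 in 2D, 0.13 in D3 and 1.95 in D7 organoids against *in vivo* TECs, while the medians over all genes tested were -0.06, -0.01 and 0.01. Without normalization beyond library size the split of 3 higher and 1 lower in D3 organoids against 2D became 3 higher and 0 lower. With either *in vivo* library left out, or either D7 library, the 7 calls between D7 organoids and *in vivo* TECs fell to 4. The 5 calls between D3 organoids and *in vivo* TECs fell to 3 without *in vivo* replicate 1 or without D3 replicate 2. Comparisons with *in vivo* TECs share the same 2 libraries, as do those with 2D. The 5 calls from D3 to D7 fell to 2 without D3 replicate 2 or D7 replicate 2 and to 3 without D7 replicate 1.

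**Figure D1:**
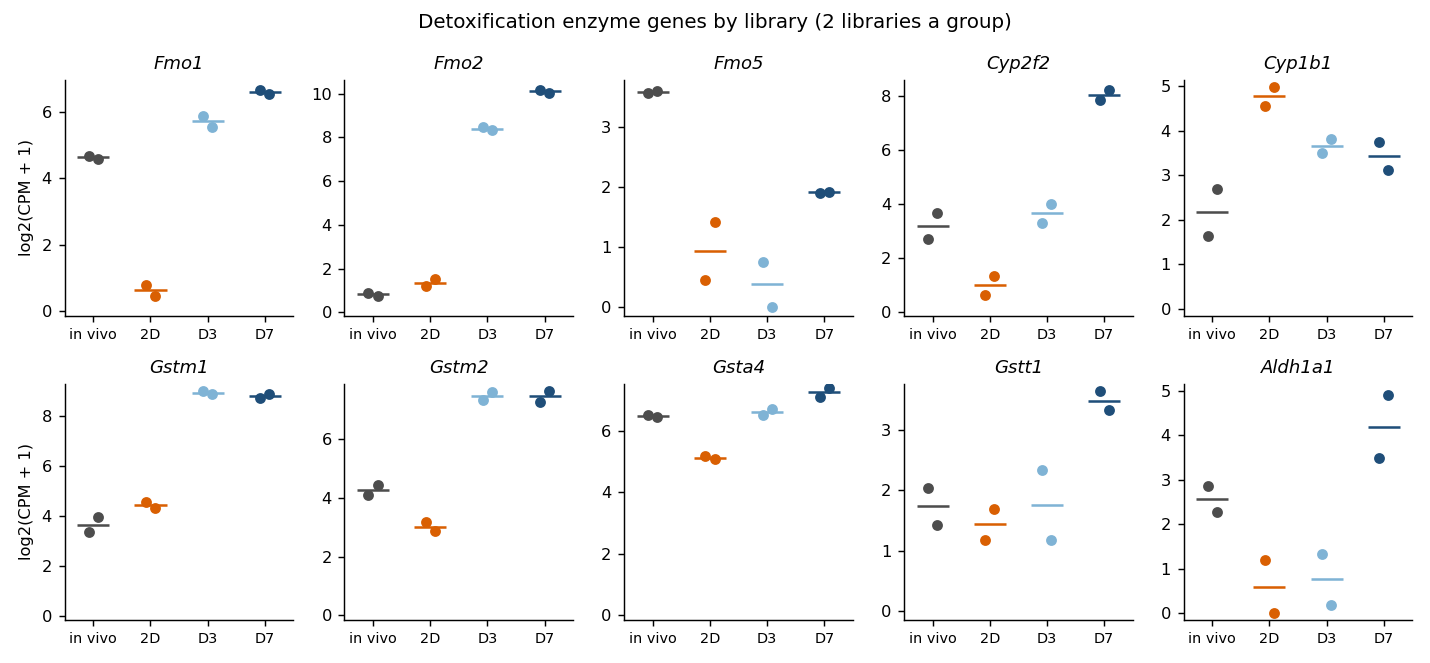
Level of each of the 10 genes in every library, as log2(CPM + 1) on the vertical axis, with the 4 groups on the horizontal axis. Points are libraries and bars are means of the 2 libraries; each panel has its own scale. *Fmo2*, *Gstm1* and *Gstm2* stand high in all 4 organoid libraries, *Cyp2f2* is high in the 2 D7 libraries, and *Cyp1b1* is highest in 2D.

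The stretch around the transcription start was read for the 3 genes picked on their rise, for *Gstm2*, the neighbour of *Gstm1* that was tested, and for *Cyp1b1*, which was higher in 2D than in organoids. Sequences are RefSeq promoter windows of build GRCm38.p6, from 250 bases before to 50 bases after the start, and each matched GRCm39 exactly at a single place, the coordinates of which are given. Of the 10 genes 8 have a window in the table, and *Fmo1* and *Gsta4* are not listed. Capitals mark the letters GCGTG or their reverse complement, the core at which the aryl hydrocarbon receptor binds.
Fmo2 (chr1:162726278-162726577, minus strand): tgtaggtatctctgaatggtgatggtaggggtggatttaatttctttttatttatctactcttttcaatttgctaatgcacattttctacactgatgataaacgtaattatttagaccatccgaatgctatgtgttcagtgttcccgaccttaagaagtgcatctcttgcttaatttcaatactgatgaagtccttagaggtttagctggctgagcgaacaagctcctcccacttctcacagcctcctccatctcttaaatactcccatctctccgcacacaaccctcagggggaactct
Cyp2f2 (chr7:26819130-26819429, plus strand): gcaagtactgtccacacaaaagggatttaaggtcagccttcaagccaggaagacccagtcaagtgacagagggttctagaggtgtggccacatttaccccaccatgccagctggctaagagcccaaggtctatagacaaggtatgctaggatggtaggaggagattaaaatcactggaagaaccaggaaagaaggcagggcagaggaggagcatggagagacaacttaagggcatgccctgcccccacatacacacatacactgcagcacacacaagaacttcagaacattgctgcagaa
Gstm1 (chr3:107925240-107925539, minus strand): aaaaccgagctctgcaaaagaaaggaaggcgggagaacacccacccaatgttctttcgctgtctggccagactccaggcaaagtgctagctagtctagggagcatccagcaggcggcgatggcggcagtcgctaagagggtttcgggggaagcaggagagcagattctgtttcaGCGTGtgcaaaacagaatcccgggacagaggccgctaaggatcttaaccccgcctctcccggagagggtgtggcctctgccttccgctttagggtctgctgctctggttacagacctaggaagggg
Gstm2 (chr3:107893687-107893986, minus strand): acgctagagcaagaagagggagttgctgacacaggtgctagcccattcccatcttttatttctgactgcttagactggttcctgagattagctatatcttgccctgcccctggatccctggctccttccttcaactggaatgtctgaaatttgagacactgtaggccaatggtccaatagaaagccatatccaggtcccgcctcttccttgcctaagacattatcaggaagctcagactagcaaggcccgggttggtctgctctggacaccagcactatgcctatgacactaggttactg
Cyp1b1 (chr17:80022441-80022740, minus strand): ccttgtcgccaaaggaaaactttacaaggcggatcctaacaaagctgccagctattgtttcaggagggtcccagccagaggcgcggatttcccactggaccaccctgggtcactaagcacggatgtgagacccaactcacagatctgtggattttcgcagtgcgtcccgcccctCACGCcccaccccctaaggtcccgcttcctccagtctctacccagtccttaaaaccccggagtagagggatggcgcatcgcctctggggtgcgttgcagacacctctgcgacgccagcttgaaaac
The GCGTG core, searched on both strands, was found in 2 of the 8 genes, *Gstm1* and *Cyp1b1*, and in 32.4% of all 32851 windows. The letters TGACNNNGC, the core of the antioxidant response element at which NRF2 binds, were in 0 of the 8 genes and in 12.4% of all windows. The window of *Nqo1*, a gene on the NRF2 list below, also held 0 of them. For *Aldh1a1* and *Gstt1* the start of the window counted lies 2157 and 880 bases downstream of the canonical start in Ensembl. No other motif was searched, and the match of letters describes these windows only.

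The Fmo genes lie next to each other. In the GENCODE annotation of GRCm39, *Fmo1* (chromosome 1, 162655471 to 162694185) and *Fmo2* (chromosome 1, 162701873 to 162726295) are 7687 bases apart on the minus strand, followed after 17824 bases by *Fmo6*. *Fmo5* is on chromosome 3 (97531564 to 97562598, plus strand). FMO enzymes oxidise nitrogen and sulphur in drugs and dietary amines. FMO1 is known from kidney and liver, FMO2 is known as the form of the lung, and FMO5 differs from the others in its substrates.

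*Fmo1* fell in 2D and rose in organoids. It was at 24.9 and 23.0 CPM *in vivo*, at 0.73 and 0.37 CPM in 2D, at 58.1 and 46.6 CPM in D3 organoids and at 101 and 94.1 CPM in D7 organoids. The groups did not overlap, and both 2D libraries lay close to the floor of 3 counts with 4 and 2 reads. The log2 fold change against *in vivo* TECs was -5.39 ± 0.37 (SE, adjusted p = 3.0e-09) in 2D, 1.13 ± 0.20 (adjusted p = 0.000409) in D3 and 2.03 ± 0.20 (adjusted p = 7.3e-07) in D7 organoids. The difference between 2D and D7 organoids was 7.42 ± 0.34 on the log2 scale, and D7 exceeded D3 organoids by 0.90 ± 0.19 (adjusted p = 0.00332). That last call was lost without D3 replicate 2, at 0.68.

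*Fmo2* was at the limit of detection before organoid culture. It had 5 and 5 reads *in vivo* (0.87 and 0.71 CPM) and 7 and 10 reads in 2D (1.27 and 1.86 CPM). In D3 organoids it had 2074 and 2322 reads (350.5 and 324.6 CPM), and in D7 organoids 9277 and 5372 reads (1151 and 1062 CPM). All 4 organoid libraries were far above the other 4, and both D7 libraries were above both D3 libraries. The mean CPM in D7 organoids was 1405 times that *in vivo*, and the ratio of summed counts was 1433 with a 95% interval of 779 to 2989 (exact conditional binomial, counting error only). In D3 organoids the ratio of means to *in vivo* was 429, and from D3 to D7 it was 3.28. The tested comparison, 2D against *in vivo*, gave a log2 fold change of 0.98 ± 0.46 and was not called (adjusted p = 0.141).

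*Fmo5* moved the other way. It was at 10.8 and 11.1 CPM *in vivo*, at 0.36 and 1.67 CPM in 2D, at 0.68 and 0.00 CPM in D3 organoids and at 2.73 and 2.77 CPM in D7 organoids. The 0 reads in D3 replicate 2 allow a level of up to 0.419 CPM. No culture library reached the *in vivo* level. Against *in vivo* TECs the log2 fold change was -3.41 ± 0.80 in 2D (adjusted p = 0.00232), -5.04 ± 0.91 in D3 (adjusted p = 0.000422) and -1.99 ± 0.70 in D7 organoids (adjusted p = 0.0363). D7 organoids exceeded D3 organoids by 3.05 ± 0.96 (adjusted p = 0.0315), and neither organoid day was called against 2D. The call of D7 organoids against *in vivo* TECs was lost with either *in vivo* library or either D7 library left out, at -2.02 to -1.97. The call from D3 to D7 was lost without D3 replicate 2 (1.93) and without either D7 library (3.06 and 3.05).

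The neighbours of *Fmo2* on chromosome 1 were read in the same way, although they are not among the 10 genes. *Fmo6* was at 0.35 and 0.99 CPM *in vivo*, 0.00 and 0.93 CPM in 2D, 168 and 118 CPM in D3 organoids and 180.5 and 187 CPM in D7 organoids. The organoid libraries were all above the others. *Fmo6* passed the filter on low values through the organoid libraries alone, so this is a description and no test is given. *Fmo4*, on the far side of *Fmo1*, had at most 17 reads in any library and did not pass the filter, and *Fmo9*, distant on the same chromosome, had 0 reads in all 8. *Fmo4* and *Fmo9* were named after their values were seen. Whether the counting used strand was not given in the sources used here. None of the Fmo members overlaps a gene on the same strand, and no 50-base word at the 3′ ends of *Fmo2* and *Fmo5* occurs in another gene, against 3.87% of those of *Fmo1*.

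CYP2F2 is the P450 of mouse club cells, the secretory cells of the airway, and activates naphthalene. *Cyp2f2* (chromosome 7, 26819322 to 26833090, plus strand) was at 5.40 and 11.7 CPM *in vivo*, 0.55 and 1.48 CPM in 2D, 8.79 and 14.8 CPM in D3 organoids and 228 and 296 CPM in D7 organoids. *In vivo* and D3 libraries overlapped, and the rise lay between D3 and D7. The ratio of means was 30.7 for D7 organoids against *in vivo* TECs and 22.2 for D7 against D3 organoids, where the ratio of summed counts was 21.0 (95% interval 17.9 to 24.8, counting error only). In 2D the gene fell by 3.08 on the log2 scale against *in vivo* TECs (SE 0.52, adjusted p = 0.00012). Without *in vivo* replicate 2 the log2 ratio of D3 organoids to *in vivo* TECs was 1.15 in place of 0.45.

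Airway markers were read beside *Cyp2f2*. *Scgb3a1*, a secretoglobin, was at 125 and 431 CPM in the D7 libraries and at most 3.91 CPM in the other 6. *Scgb3a2* was at 0.87 CPM in D7 replicate 1 and 405 CPM in D7 replicate 2, with 7 and 2047 reads, against 7.62 CPM in *in vivo* replicate 2 and at most 1.26 CPM in the remaining libraries. *Scgb1a1*, the marker of club cells, was at 0.00 and 3.36 CPM in the D7 libraries, with 0 and 17 reads, and had at most 2 reads elsewhere. The 7 airway markers, all above 3 counts in at least 1 D7 library, summed to 142 and 899 CPM in D7, 3.89 to 13.4 CPM in D3 organoids, 13.9 to 25.2 CPM *in vivo* and 133 to 146 CPM in 2D. The 2D sum came mainly from *Foxj1*, a regulator of ciliated cells, at 109 and 123 CPM, which was at 11.8 and 10.01 CPM *in vivo*, 1.52 and 6.57 CPM in D3 and 6.70 and 4.94 CPM in D7 organoids. *Nkx2-1*, the transcription factor of lung and thyroid epithelium, had at most 7 reads. Beside this, *Cyp2f2* was at 228 CPM in D7 replicate 1 and 296 CPM in D7 replicate 2. The part of such cells in the level of *Cyp2f2* was not tested.

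CYP1B1 acts on steroids and polycyclic aromatic compounds, and its gene is a known target of the aryl hydrocarbon receptor. *Cyp1b1* (chromosome 17, 80008966 to 80022532, minus strand) was at 2.09 and 5.50 CPM *in vivo*, 22.6 and 30.4 CPM in 2D, 10.3 and 13.002 CPM in D3 organoids and 12.4 and 7.71 CPM in D7 organoids. It was highest in 2D and lowest *in vivo*, with the 2 organoid days overlapping in between. The log2 fold change against *in vivo* TECs was 2.76 ± 0.40 in 2D (adjusted p = 3.0e-05), 1.58 ± 0.41 in D3 (adjusted p = 0.00761) and 1.39 ± 0.41 in D7 organoids (adjusted p = 0.0149). Against 2D it fell by 1.18 in D3 (SE 0.36, adjusted p = 0.0162) and by 1.37 in D7 organoids (SE 0.37, adjusted p = 0.00569). The difference between D7 and D3 organoids was -0.20 ± 0.37 (adjusted p = 0.768).

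The organoid calls of *Cyp1b1* rested on few libraries. Against *in vivo* TECs, the D3 call was lost without *in vivo* replicate 1 (1.08) or D3 replicate 2 (1.47), and the D7 call without *in vivo* replicate 1 (0.89) or D7 replicate 1 (0.99). Against 2D, the D3 call was lost without 2D replicate 2 (-0.96), D3 replicate 1 (-1.03) or D3 replicate 2 (-1.34), and the D7 call without 2D replicate 2 (-1.16) or D7 replicate 2 (-1.09). The D3 call against 2D was also lost with no normalization beyond library size (-0.91).

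*Gstm1* and *Gstm2* are neighbours in a cluster of 7 mu-class genes on chromosome 3. *Gstm2* spans 107889004 to 107893785 and *Gstm1* 107919380 to 107925380, both on the minus strand. Mu-class enzymes conjugate glutathione to epoxides and other electrophiles. Of the 50-base words at their 3′ ends, 21.5% for *Gstm1* and 15.6% for *Gstm2* also occur in other annotated genes. Those in the files had at most 11 reads each over all 8 libraries, and how reads that fit several genes were counted was not given in the sources used here. *Gstm1* and *Gstm2* shared none of these words with each other.

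*Gstm1* was at 9.23 and 14.5 CPM *in vivo*, 22.4 and 18.9 CPM in 2D, 513 and 470 CPM in D3 organoids and 424 and 469 CPM in D7 organoids. The 4 organoid libraries were far above the other 4 and had reached their level by D3. The ratio of means to *in vivo* was 41.4 in D3 and 37.6 in D7 organoids, with 95% intervals of the ratio of summed counts of 34.4 to 47.6 and 31.0 to 42.8 (counting error only). The tested comparison of 2D with *in vivo* TECs gave 0.78 ± 0.22 on the log2 scale (adjusted p = 0.00773). This call was lost without *in vivo* replicate 1 (0.51) and without 2D replicate 1 (0.66).

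*Gstm2* was not picked on its rise and showed the same step at D3. It was at 16.4 and 20.9 CPM *in vivo*, 8.001 and 6.31 CPM in 2D, 164 and 195 CPM in D3 organoids and 155 and 200 CPM in D7 organoids. The groups were separate except for the 2 organoid days. The log2 fold change against *in vivo* TECs was 3.26 ± 0.21 in D3 (adjusted p = 2.6e-09) and 3.24 ± 0.21 in D7 organoids (adjusted p = 3.2e-09). In 2D it fell by 1.38 (SE 0.25, adjusted p = 0.000218), and between D7 organoids and 2D the difference was 4.63 ± 0.23. D7 differed from D3 organoids by -0.02 ± 0.18 (adjusted p = 0.965). *Gstm2* and *Gstm1* had opposite signs in 2D against *in vivo* TECs, -1.38 and 0.78.

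*Gsta4*, which encodes the alpha-class enzyme that conjugates the lipid peroxidation product 4-hydroxynonenal, varied less. It was at 90.7 and 87.0 CPM *in vivo*, 35.5 and 32.7 CPM in 2D, 90.8 and 102 CPM in D3 organoids and 137 and 169 CPM in D7 organoids. The 2D libraries were lowest and the D7 libraries highest. The log2 fold change against *in vivo* TECs was -1.38 ± 0.18 in 2D (adjusted p = 6.9e-06), 0.12 ± 0.17 in D3 (adjusted p = 0.642) and 0.78 ± 0.17 in D7 organoids (adjusted p = 0.00155). D7 exceeded D3 organoids by 0.66 ± 0.17 (adjusted p = 0.00946), a call lost without D3 replicate 1 (0.57) or D7 replicate 2 (0.51). *Gsta4* is on chromosome 9 (78090056 to 78117763, plus strand).

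*Gstt1* (chromosome 10, 75618994 to 75634445, minus strand) encodes a theta-class enzyme that acts on small halogenated compounds. It was at 3.13 and 1.69 CPM *in vivo*, 1.27 and 2.23 CPM in 2D, 4.06 and 1.26 CPM in D3 organoids and 11.5 and 9.10 CPM in D7 organoids. The first 3 groups overlapped and the D7 libraries were above all of them. D7 organoids were called higher than *in vivo* TECs (2.11 ± 0.63, adjusted p = 0.0148), 2D (2.55 ± 0.66, adjusted p = 0.0044) and D3 organoids (1.98 ± 0.62, adjusted p = 0.0316). With 7 to 24 reads in each library of the lower groups, these calls depended on single libraries. The call against *in vivo* TECs was lost without *in vivo* replicate 2 (1.71), D7 replicate 1 (1.92) or D7 replicate 2 (2.27). Against 2D it was lost without 2D replicate 1 (2.198) or D7 replicate 1 (2.37), and against D3 without D3 replicate 2 (1.28), D7 replicate 1 (1.79) or D7 replicate 2 (2.14).

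*Aldh1a1* (chromosome 19, 20469539 to 20622825, plus strand) encodes a cytosolic enzyme that makes retinoic acid from retinaldehyde and is widely used to mark progenitor cells. It was at 6.27 and 3.81 CPM *in vivo*, 1.27 and 0.00 CPM in 2D, 1.52 and 0.14 CPM in D3 organoids and 10.2 and 29.1 CPM in D7 organoids. The 0 reads in 2D replicate 2 allow up to 0.557 CPM. Both D7 libraries were above all others, with replicate 2 the higher. Of the airway markers, *Scgb1a1*, *Scgb3a1*, *Scgb3a2*, *Sftpd* and *Tppp3* were also higher in D7 replicate 2, while *Foxj1* and *Nkx2-1* were lower there. The part of airway-like cells in the level of *Aldh1a1* was not tested. D7 exceeded D3 organoids by 4.59 ± 0.83 (adjusted p = 0.00102) and 2D by 4.88 ± 0.88 (adjusted p = 0.000233) on the log2 scale. Both calls held without any single library, at 3.59 without D3 replicate 2 and 3.65 without D7 replicate 2 for the first, and at 3.90 without 2D replicate 2 and 3.95 without D7 replicate 2 for the second. Leaving out D3 replicate 1 or 2D replicate 1 leaves a group with 1 or 0 reads, and the fold is then not given. Against *in vivo* TECs the log2 fold change was -2.92 ± 0.92 in 2D (adjusted p = 0.0168), -2.64 ± 0.87 in D3 (adjusted p = 0.03) and 1.95 ± 0.67 in D7 organoids (adjusted p = 0.032).

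The calls of *Aldh1a1* against *in vivo* TECs changed with the tool and with single libraries. With DESeq2's Wald test the adjusted p was 0.13 in 2D, 0.24 in D3 and 0.35 in D7 organoids, and limma-voom also lost the 2D and D3 calls (adjusted p = 0.072 and 0.079). The 2D call was lost without *in vivo* replicate 1 (-2.53) or 2D replicate 2 (-1.95). The D3 call was lost without *in vivo* replicate 1 (-2.26), D3 replicate 2 (-1.64) or D7 replicate 2 (-2.63). The D7 call was lost without *in vivo* replicate 1 (2.33), *in vivo* replicate 2 (1.62) or D7 replicate 2 (1.02). The neighbouring *Aldh1a7* had 22 and 28 reads *in vivo*, 7 and 4 in 2D, 0 and 9 in D3 organoids and 108 and 54 in D7 organoids. It was named after its values were seen.

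**Figure D2:**
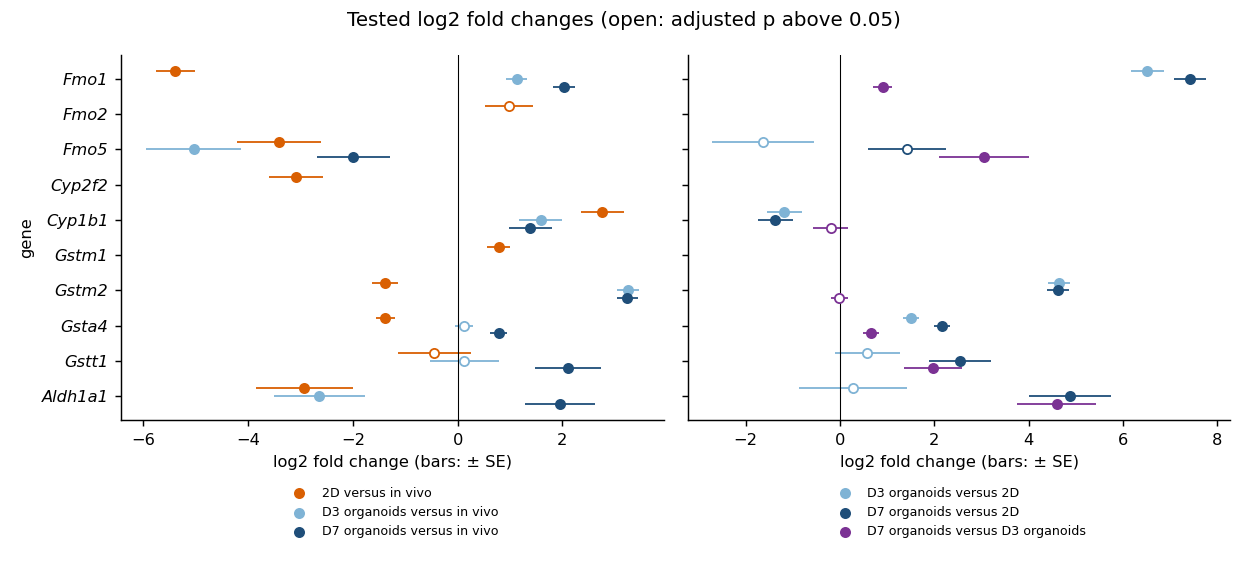
Log2 fold changes of the tested genes (horizontal axis) with their SE as bars, against *in vivo* TECs on the left and against 2D-cultured TECs or D3 organoids on the right. Filled points had an adjusted p of at most 0.05 and open points did not; *Fmo2*, *Cyp2f2* and *Gstm1* are shown for 2D against *in vivo* alone. *Fmo1* lies at -5.39 in 2D and at 2.03 in D7 organoids, and *Gstm2* at 3.26 and 3.24 on the 2 organoid days.

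The 4 enzyme families were then read beyond the 10 genes. They hold 145 other genes by symbol, of which 47 passed the filter. Of these, 18 were called in 2D against *in vivo* TECs (4 higher, 14 lower), 20 in D3 organoids (11 higher, 9 lower) and 21 in D7 organoids (11 higher, 10 lower). Against 2D-cultured TECs, 24 were called in D3 organoids (19 higher, 5 lower) and 28 in D7 organoids (22 higher, 6 lower), and 14 were called from D3 to D7 (11 higher, 3 lower). The median log2 fold change of the 47 genes was -0.64 in 2D, 0.01 in D3 and 0.46 in D7 organoids against *in vivo* TECs, and 1.17 in D7 organoids against 2D, where the median of all genes was 0.10. Among all genes tested 19.9% were called higher and 21.7% lower in 2D against *in vivo* TECs, 14.1% higher and 14.0% lower in D3 organoids and 18.0% higher and 16.8% lower in D7 organoids. The shares were 19.3% higher and 19.1% lower in D3 organoids against 2D, and 24.4% higher and 21.1% lower in D7 organoids against 2D. Between D3 and D7 organoids they were 10.9% higher and 9.91% lower in D7. The D3 count against *in vivo* TECs fell to 13 without D3 replicate 1, and that against 2D to 15 without 2D replicate 2. From D3 to D7 the count fell to 7, 9 and 8 without D3 replicate 2, D7 replicate 1 and D7 replicate 2.

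Among the 16 Aldh genes tested 9 were lower and 1 higher in 2D against *in vivo* TECs, 6 lower and 2 higher in D3 and 8 lower and 2 higher in D7 organoids. All genes tested gave 21.7% lower and 19.9% higher in 2D, 14.0% and 14.1% in D3 and 16.8% and 18.0% in D7 organoids. The lower genes included mitochondrial enzymes of amino acid breakdown. *Aldh4a1*, of proline breakdown, was at 97.8 and 112 CPM *in vivo* and 19.1 and 16.2 CPM in 2D (-2.57 ± 0.19, adjusted p = 9.81e-09). It was at 51.5 and 53.4 CPM in D3 and 71.6 and 78.1 CPM in D7 organoids, with log2 fold changes against *in vivo* TECs of -1.0015 ± 0.18 (adjusted p = 0.000326) and -0.49 ± 0.17 (adjusted p = 0.0363). The D7 call of *Aldh4a1* was lost without *in vivo* replicate 2 (-0.39), D7 replicate 1 (-0.43) or D7 replicate 2 (-0.55), and with no filter on low counts (-0.46). *Aldh6a1*, of valine breakdown, was at 25.1 and 19.6 CPM *in vivo* and 4.55 and 2.97 CPM in 2D (-2.56 ± 0.35, adjusted p = 1.33e-05). In D3 organoids *Aldh6a1* was at 25.9 and 31.3 CPM and in D7 organoids at 26.1 and 15.2 CPM, neither called against *in vivo* TECs. *Aldh9a1*, which acts on amino aldehydes, was at 85.1 and 77.6 CPM *in vivo*, and its log2 fold change was -1.15 in 2D, -0.74 in D3 and -1.28 in D7 organoids, all called. The D3 call of *Aldh9a1* was lost without D3 replicate 2 (-0.63).

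Among the 15 Gst genes tested 2 were higher and 4 lower in 2D against *in vivo* TECs, 6 higher and 2 lower in D3 and 6 higher and 1 lower in D7 organoids. Over all genes 19.9% were higher and 21.7% lower in 2D, 14.1% and 14.0% in D3 and 18.0% and 16.8% in D7 organoids. *Gsta3*, an alpha-class enzyme that also isomerises steroids, was at 0.87 and 1.41 CPM *in vivo*, 0.36 and 0.37 CPM in 2D, 7.77 and 10.2 CPM in D3 organoids and 34.7 and 28.5 CPM in D7 organoids. It passed the filter through the organoid libraries, so no test is given. *Gsto1*, an omega-class enzyme with reductase activity, was at 27.7 and 24.1 CPM *in vivo*, 171 and 152 CPM in 2D, 69.6 and 65.4 CPM in D3 organoids and 273 and 327 CPM in D7 organoids. It was called in all 6 comparisons. *Gstt3*, of the theta class as *Gstt1*, was at 35.3 and 43.2 CPM *in vivo*, 36.7 and 38.1 CPM in 2D, 60.8 and 55.2 CPM in D3 organoids and 174 and 208 CPM in D7 organoids (D7 against *in vivo* 2.28 ± 0.18, adjusted p = 4.32e-08). *Gstm5*, in the cluster of *Gstm1*, rose less, by 1.35 ± 0.28 in D7 organoids against *in vivo* TECs (adjusted p = 0.00137), and *Gstm7* had at most 3 reads outside organoids and 22 to 34 in the 4 organoid libraries. *Gstm7* was named after its values were seen.

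Few other Cyp genes were measured, with 14 of 98 past the filter and at most 5 called in any comparison. The share of all genes called ran from 20.8% to 45.5% by comparison. *Cyp7b1*, an oxysterol hydroxylase, was at 5.57 and 9.45 CPM *in vivo*, 3.82 and 4.83 CPM in 2D, 23.0 and 14.0 CPM in D3 organoids and 19.0 and 15.8 CPM in D7 organoids. It exceeded 2D by 2.09 ± 0.38 in D3 (adjusted p = 0.000324) and 2.01 ± 0.38 in D7 organoids (adjusted p = 0.000388). *Cyp2j6*, an epoxygenase, was higher in 2D than *in vivo* (2.09 ± 0.34, adjusted p = 7.67e-05), at 35.8 and 33.8 against 5.22 and 10.9 CPM. It fell by 2.11 from 2D to D7 organoids (SE 0.34, adjusted p = 7.36e-05).

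**Figure D3:**
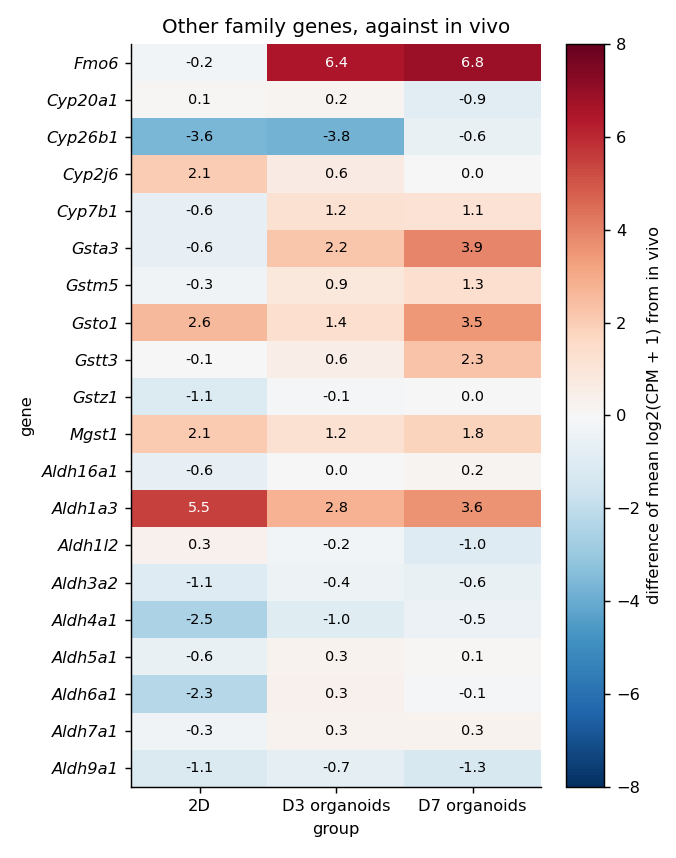
Difference of the mean log2(CPM + 1) from *in vivo* TECs for the 20 most abundant called genes of the 4 families outside the set, by group, with the value in each cell. *Fmo6* stands at 6.4 and 6.8 in D3 and D7 organoids and *Aldh1a3* at 5.5 in 2D, while *Cyp26b1* is at -3.6 in 2D and -3.8 in D3 organoids.

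Retinoid enzymes put *Aldh1a1* beside its partners. *Aldh1a3*, which also makes retinoic acid, was at 9.23 and 17.5 CPM *in vivo*, 636 and 583 CPM in 2D, 99.5 and 89.8 CPM in D3 organoids and 162 and 167 CPM in D7 organoids. Its log2 fold change against *in vivo* TECs was 5.49 ± 0.24 in 2D (adjusted p = 1.16e-11) and 3.60 ± 0.22 in D7 organoids (adjusted p = 2.25e-09), and it was highest in 2D, where *Aldh1a1* had at most 7 reads. *Aldh1a2* had 0 reads in all 8 libraries, which allows up to 0.593 CPM in the shallowest. *Cyp26b1*, which degrades retinoic acid, was at 73.5 and 85.9 CPM *in vivo*, 8.73 and 3.34 CPM in 2D, 5.58 and 4.33 CPM in D3 organoids and 46.6 and 57.7 CPM in D7 organoids. It fell by 3.72 in 2D (SE 0.31) and by 4.01 in D3 organoids (SE 0.32) against *in vivo* TECs, was 3.40 ± 0.32 higher in D7 than in D3 organoids, and was not called between D7 organoids and *in vivo* TECs (-0.62 ± 0.26, adjusted p = 0.0744). limma-voom and the fits without either 2D library did call that difference, at -0.64 and -0.62.

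Of the 13 genes on the retinoid list, which leaves out *Aldh1a1*, 11 were tested. Against *in vivo* TECs 4 were higher and 1 lower in 2D, 4 higher and 2 lower in D3 and 5 higher and 1 lower in D7 organoids, where 41.6%, 28.2% and 34.8% of all genes were called. From D3 to D7 organoids 6 were higher and 2 lower, where 10.9% of all genes were higher and 9.91% lower. *Dhrs3*, which reduces retinaldehyde back to retinol, was at 36.4 and 41.2 CPM *in vivo*, 72.0 and 75.0 CPM in 2D, 103 and 127 CPM in D3 organoids and 487 and 518 CPM in D7 organoids. *Rarb*, a receptor whose gene responds to retinoic acid, rose by 5.40 ± 0.38 in D7 organoids against *in vivo* TECs (adjusted p = 8.90e-09), from 1.39 and 0.71 to 47.3 and 40.5 CPM. *Crabp1*, a carrier of retinoic acid, had levels of at most 1.27 CPM in the first 3 groups and 12.3 and 12.3 CPM in D7 organoids, whereas *Crabp2* fell from 82.0 and 89.1 CPM *in vivo* to 30.4 and 16.6 CPM in D7 organoids (-1.84 ± 0.24, adjusted p = 1.32e-05).

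**Figure D4:**
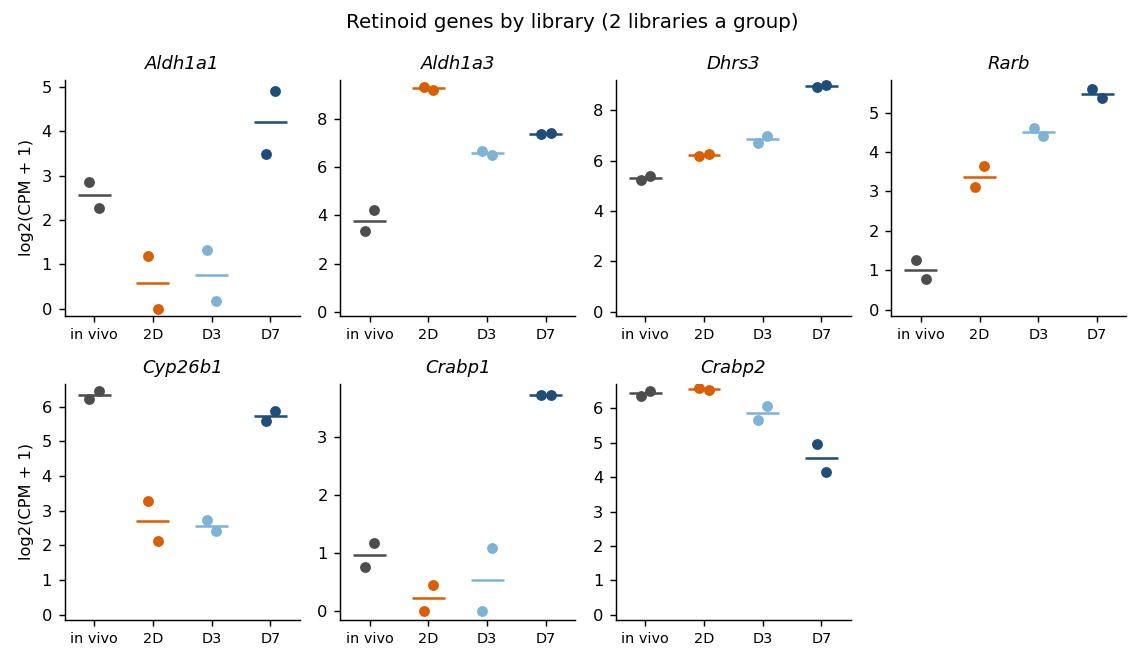
Level of 7 genes of retinoid metabolism in every library, as log2(CPM + 1) on the vertical axis, by group on the horizontal axis; points are libraries and bars the means of 2. *Aldh1a3* is highest in 2D, *Dhrs3* and *Rarb* are highest in D7 organoids, and *Cyp26b1* is low in 2D and D3 organoids and near its *in vivo* level in D7 organoids.

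NRF2 is the transcription factor that raises many glutathione and quinone enzymes under oxidative stress. On the list of NRF2 and 13 genes tied to it, all tested, 10 were higher and 1 lower in 2D against *in vivo* TECs, 9 higher and 2 lower in D3 and 9 higher and 2 lower in D7 organoids, with median log2 fold changes of 1.18, 0.97 and 0.93. Of all genes, 19.9% were higher and 21.7% lower in 2D, 14.1% and 14.0% in D3 and 18.0% and 16.8% in D7 organoids. Against 2D the medians were -0.21 in D3 and -0.23 in D7 organoids. *Nqo1*, a quinone reductase, was the gene lower in 2D, with 312 and 301 CPM *in vivo*, 18.5 and 12.1 CPM in 2D, 108 and 109 CPM in D3 organoids and 82.5 and 82.4 CPM in D7 organoids (2D against *in vivo* -4.32 ± 0.20, adjusted p = 3.63e-11). *Srxn1*, which repairs peroxiredoxins, rose by 1.18 ± 0.19 in 2D and fell by 3.02 in D7 organoids (SE 0.23) against *in vivo* TECs. *Gsr*, glutathione reductase, was at 27.0 and 18.8 CPM *in vivo*, 210 and 160 CPM in 2D, 110 and 71.3 CPM in D3 organoids and 29.9 and 27.7 CPM in D7 organoids. *Gclc*, the catalytic subunit of glutathione synthesis, was at 48.2 and 51.3 CPM *in vivo*, 59.3 and 69.8 CPM in 2D, 173 and 136 CPM in D3 organoids and 256 and 237 CPM in D7 organoids. It rose by 2.31 ± 0.18 in D7 organoids against *in vivo* TECs (adjusted p = 2.41e-08).

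On the list of glutathione synthesis and peroxidases, which shares *Gclc*, *Gclm* and *Gsr* with the NRF2 list, 5 of 10 genes were higher and 0 lower in 2D against *in vivo* TECs, and 4 were higher and 1 lower on each organoid day. The shares over all genes were 19.9% higher and 21.7% lower in 2D, 14.1% and 14.0% in D3 and 18.0% and 16.8% in D7 organoids. In 2D *Gsr* rose by 3.02 ± 0.24. *Gstm2* and *Gsta4* fell by 1.38 and 1.38 there, while *Gstm1* rose by 0.78. Of the 15 Gst genes tested outside the set, 2 were higher and 4 lower in 2D.

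The aryl hydrocarbon receptor list, which leaves out *Cyp1b1*, had 5 of 8 genes tested and 1 to 4 called in each comparison. These counts include *Aldh3a1* wherever an organoid group is compared, although it passed the filter through the organoid libraries alone. In D3 organoids against *in vivo* TECs and from D3 to D7 organoids it was the only gene called. By comparison, 20.8% to 45.5% of all genes were called. *Ahr* itself was at 11.5 and 6.21 CPM *in vivo*, 25.8 and 29.3 CPM in 2D, 5.75 and 8.11 CPM in D3 organoids and 4.09 and 5.14 CPM in D7 organoids. It rose by 1.65 ± 0.34 in 2D against *in vivo* TECs (adjusted p = 0.000935) and fell by 2.59 from 2D to D7 organoids. *Tiparp*, a target of the receptor, was at 25.4 and 25.2 CPM *in vivo* and 38.0 and 34.9 CPM in 2D, a difference that was not called. In D3 organoids *Tiparp* was at 11.3 and 21.8 CPM (against 2D -1.13 ± 0.28, adjusted p = 0.00418, lost without D3 replicate 1 at -0.74). *Arnt*, also on the list, was called lower in 2D, at 19.8 and 18.0 CPM against 34.8 and 27.2 CPM *in vivo*. *Cyp1a1* and *Cyp1a2*, the other P450 genes of this response, had 1 read in all libraries together. *Aldh3a1*, an aldehyde dehydrogenase of the cornea and a further target, was at most 0.99 CPM *in vivo* and in 2D, 3.55 and 2.66 CPM in D3 organoids and 12.3 and 14.0 CPM in D7 organoids, and it passed the filter through the organoid libraries alone, so no test is given.

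Microsomal P450 enzymes receive electrons from cytochrome P450 reductase and cytochrome b5. *Por*, the reductase, was at 34.3 and 46.7 CPM *in vivo*, 176 and 177 CPM in 2D, 101 and 89.6 CPM in D3 organoids and 150 and 150 CPM in D7 organoids, and it was called higher than *in vivo* in each culture (2.12 ± 0.18, 1.23 ± 0.18 and 1.88 ± 0.18). *Cyb5r3*, cytochrome b5 reductase, rose by 1.99 ± 0.17 on both organoid days (adjusted p = 9.58e-08 in D3) and not detectably in 2D (0.28 ± 0.17, adjusted p = 0.206). Of the 6 redox partners 3 were higher and 2 lower in 2D, 3 higher and 1 lower in D3, and 3 higher and 0 lower in D7 organoids against *in vivo* TECs. The shares over all genes were 19.9% higher and 21.7% lower in 2D, 14.1% and 14.0% in D3 and 18.0% and 16.8% in D7 organoids. *Ephx1*, the epoxide hydrolase that works beside P450 enzymes, was at 3.66 and 3.24 CPM *in vivo* and between 42.7 and 65.6 CPM in all 6 culture libraries (3.79 ± 0.26 in 2D, adjusted p = 3.31e-09).

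Of 12 other conjugating and hydrolysing enzymes, *Ephx1* included, 6 were tested, with 1 higher and 1 lower in 2D and 2 higher and 2 lower on each organoid day against *in vivo* TECs. Of 5 xenobiotic nuclear receptors 3 were tested, and 0 were higher and 3 lower in 2D, 1 higher and 0 lower in D3, and 1 higher and 1 lower in D7 organoids. Of 6 export transporters 5 were tested, with 1 higher and 0 lower in 2D and 2 higher and 1 lower on each organoid day. Beside these lists, 19.9% of all genes were higher and 21.7% lower in 2D, 14.1% and 14.0% in D3 and 18.0% and 16.8% in D7 organoids. *Abcc1*, which pumps out glutathione conjugates, was at 33.1 and 26.9 CPM *in vivo*, 24.2 and 25.8 CPM in 2D, 5.75 and 4.33 CPM in D3 organoids and 5.46 and 7.71 CPM in D7 organoids, a fall by 2.58 (SE 0.30) and 2.21 (SE 0.29) on the 2 organoid days. *Abcc4*, a related pump, rose by 1.73 ± 0.28 in D7 organoids (adjusted p = 0.000121).

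The genes whose levels ran most like those of the 3 picked genes were found by Pearson's r of log2(CPM + 1) over the 8 libraries, among 9034 genes with a mean of at least 10 CPM over them. The 8 points share 4 groups, and r is given as a description. For *Fmo2* the nearest were *Caln1* (r = 0.997), *Ush1c* (r = 0.996) and *Igfbp4* (r = 0.994), and *Igfbp4*, a binding protein of insulin-like growth factors, went from 14.1 and 13.4 CPM *in vivo* to 1031 and 1065 CPM in D7 organoids. For *Gstm1* they were *Col4a6* (r = 0.997), *Sncaip* (r = 0.997) and *Tmigd1* (r = 0.996). For *Cyp2f2* they were *Pdpr* (r = 0.989), *Upk3a* (r = 0.985) and *Ypel2* (r = 0.984), and *Upk3a*, a uroplakin of the bladder surface, was at 41.1 and 49.6 CPM in D7 organoids and at most 5.45 CPM elsewhere.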

How the data were processed

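RNA of the 8 libraries was sequenced from the 3′ end. The authors aligned the reads to GRCm39 and counted them per gene, and the deposited files hold these raw counts, 1 file per library. The submitters' processing notes name R 4.1.2, edgeR and limma, while the annotation release, the strand setting and the treatment of reads that fit several genes were not given in the sources used here. Gene IDs were matched to GENCODE symbols for 56236 of 56923 genes.

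Counts were analysed in edgeR 4.0.16 (R 4.3.3). A gene was tested where 3 or more libraries reached 1 CPM, library sizes were TMM-scaled, and a model of 4 groups over all 8 libraries was tested two-sided with the quasi-likelihood test, with Benjamini-Hochberg adjustment over all genes tested. Errors of log2 fold changes are SE with n = 2 per group, worked back from the fold change and the test's F statistic. p-values rest on a spread between libraries of a group that was estimated over all 8 libraries and moderated across genes. They do not rest on the libraries of the 2 compared groups alone. The 2 libraries of a group differed by more than sampling noise in each group. A count of 0 is given with the 3 counts it allows, and intervals cover counting error only. The scripts were tested on simulated data. The members and gene lists were chosen with earlier results of these data known, and no gene list was given a test of its own. Of the other family genes, those with a group mean of at least 10 CPM and a call in some comparison were eligible, and the 20 with the highest mean were named. From the pathway lists, genes with a group mean of at least 10 CPM could be named. Alternatives were DESeq2 1.42.0 (size factors, Wald test), no normalization, limma-voom 3.58.1, other filters, omission of ribosomal RNA genes, a replicate block and omission of each library. Some genes are not reported here.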

Additional observations from a re-analysis of the deposited data

How the results depend on the processing

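Of 942 single-gene results under the alternatives, 867 kept their direction and side of the threshold or moved by less than the replicate spread, 43 lost the call, 20 moved, 1 gained a call and 11 changed sign, none of these 11 being called in the main test. With a mean of at least 10 CPM required, only 4 of the 7 genes counted in organoid comparisons were tested, of which 3 were called in D3 and 4 in D7 organoids against *in vivo* TECs and 2 from D3 to D7. Of the other family genes 21 were then tested, with 12 and 13 called against *in vivo* TECs and 18 in D7 organoids against 2D. With single libraries left out, calls ranged from 6 to 8 of the 10 genes (2D against *in vivo*) and, of the 7, from 3 to 5 (D3 against *in vivo*), 4 to 7 (D7 against *in vivo*), 3 to 4 (D3 against 2D), 5 to 6 (D7 against 2D) and 2 to 5 (D7 against D3). Those among the other family genes ranged, in the same order, from 15 to 18, 13 to 19, 15 to 21, 15 to 27, 23 to 30 and 7 to 17.

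The changes of sign were in differences near 0 or in genes with few reads. With single libraries left out, *Gstt1* ranged from -0.89 to 0.043 in 2D and from -0.91 to 0.83 in D3 organoids against *in vivo* TECs (-0.055 with limma-voom), and from -0.47 to 1.23 in D3 organoids against 2D. *Aldh1a1* ranged from -2.05 to 5.35 in D3 organoids against 2D, but these fits leave 1 library of 1 read in D3 or of 0 reads in 2D, and neither value is a measured fold. From D3 to D7, *Cyp1b1* ranged from -0.60 to 0.093 and *Gstm2* from -0.20 to 0.16, with 0.011 for *Gstm2* under the filter of 10 CPM. The cause was not tested.

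With no normalization beyond library size the median of all genes shifted by -0.18 in 2D against *in vivo* TECs, and by 0.26 and 0.20 in D3 and D7 organoids against 2D. With the replicate number as a block, the paired fit called 8, 5, 7, 4, 6 and 5 of the genes in the 6 comparisons, as without it, and 18, 20, 24, 24, 29 and 15 of the other family genes. Libraries with the same number correlated at r = 0.0376 to 0.149 across groups, and share only a number. The 2 libraries per group and single-digit counts, as for *Fmo5*, *Gstt1* and *Aldh1a1*, limit what can be detected.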
